A study of Mus musculus with 4 samples.

Results

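Regulatory T cells were described in single-cell RNA libraries of mouse liver. Members were chosen by their UMI counts: a barcode was taken as a regulatory T cell when it held at least 1 unique molecular identifier (UMI), a counted RNA molecule, of Cd3d, Cd3e or Cd3g, at least 1 UMI of Foxp3, and none of Cd8a, Cd8b1, Cd79a or C1qa. A kept barcode showed 300 or more genes and 500 or more UMIs, with no more than 30% of them mitochondrial. The rule found 102 regulatory T cells among 28199 kept barcodes: 11 of 6359 in the control library, 19 of 5359 with low AFP, 21 of 8477 with high AFP and 51 of 8004 from HCC. Wherever 4 values follow each other below, control comes first, then low-AFP, then high-AFP, then HCC.

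Regulatory T cells are CD4 T cells that hold back other lymphocytes, and the transcription factor Foxp3 sets and keeps their identity. They depend on interleukin-2 taken up through a receptor containing Il2ra (CD25), and they restrain dendritic cells through Ctla4, which removes the costimulatory ligands that other T cells need. In tissues and tumours an activated form carries the TNF receptor family members Tnfrsf4 (OX40) and Tnfrsf18 (GITR) along with Icos, Klrg1 and Gata3.

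The study follows the liver from obesity to hepatocellular carcinoma (HCC) in C57BL/6 mice, with 1 library per group. The groups are a control diet, CD-HFD with low AFP, a group labelled high AFP, and HCC, for which the suspension came from the tumour region. AFP is alpha-fetoprotein, a fetal liver protein used as a marker of liver cancer. The title of the high-AFP library names the control diet while its deposited file name gives CD-HFD, so this library is called by its AFP label alone. The titles give an age of 15 months and the age field 17 months. Hepatocytes from a collagenase digest and sorted live non-parenchymal cells were mixed in equal parts, so a share of all barcodes reflects that mixing, and shares below are taken within T cells. Nothing in the labels says how many mice entered a library.

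Libraries held 8929 to 11539 barcodes and 65326793 to 97393862 UMIs. The share of barcodes over the mitochondrial limit was 42.7%, 42%, 26.5% and 8.19%. Only 1 barcode that passed the regulatory T cell gate in control and 1 in HCC failed the cell filters. No barcode was a regulatory T cell in more than 1 library, although 2 member barcodes were also kept barcodes of another library without passing the gate there, 1 between control and high-AFP and 1 between low-AFP and high-AFP. Because each group is 1 library, no p was computed between libraries, and intervals on shares, sums and ratios (95%, exact) cover counting error only.

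The promoter windows of the gene that defines the gate and of 2 neighbouring TNF receptor genes that were both high in these cells are shown first. Each runs over the 250 bases before an annotated start, plus strand, from RefSeq on GRCm38.p6. Foxp3 has 2 annotated starts in that table, and the windows of Tnfrsf4 and Tnfrsf18 begin 12627 bases apart on chromosome 4. Capitals mark the letters TTCNNNGAA, the palindrome bound by STAT proteins such as the STAT5 that acts below the interleukin-2 receptor.
Foxp3, chrX:7579426-7579675: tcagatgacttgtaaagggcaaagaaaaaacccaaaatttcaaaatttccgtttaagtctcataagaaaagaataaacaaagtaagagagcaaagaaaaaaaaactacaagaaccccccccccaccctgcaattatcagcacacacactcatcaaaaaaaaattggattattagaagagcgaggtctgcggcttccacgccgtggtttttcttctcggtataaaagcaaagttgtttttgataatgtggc
Foxp3, chrX:7580233-7580482: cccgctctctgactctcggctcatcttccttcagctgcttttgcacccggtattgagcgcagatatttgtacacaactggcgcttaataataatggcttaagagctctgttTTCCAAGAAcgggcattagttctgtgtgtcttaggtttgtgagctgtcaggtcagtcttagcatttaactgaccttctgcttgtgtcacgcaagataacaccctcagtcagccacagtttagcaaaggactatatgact
Tnfrsf4, chr4:156013445-156013694: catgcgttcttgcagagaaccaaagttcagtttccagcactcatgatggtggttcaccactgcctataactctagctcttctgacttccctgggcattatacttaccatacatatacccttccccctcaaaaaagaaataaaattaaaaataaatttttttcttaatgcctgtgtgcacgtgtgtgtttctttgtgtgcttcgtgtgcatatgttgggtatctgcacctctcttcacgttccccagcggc
Tnfrsf18, chr4:156026072-156026321: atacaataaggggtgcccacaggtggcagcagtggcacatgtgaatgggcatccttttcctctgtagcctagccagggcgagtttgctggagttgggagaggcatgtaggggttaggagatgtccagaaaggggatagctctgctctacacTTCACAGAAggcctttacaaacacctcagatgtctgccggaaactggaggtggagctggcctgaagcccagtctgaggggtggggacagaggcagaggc
The letters TTCNNNGAA occurred once in the second Foxp3 window, from base 112, and once in the Tnfrsf18 window, from base 152. They read the same on either strand. Of 32851 promoter windows of that length, 7.02% held them. Neither TGTTTAC, a forkhead motif, nor TGANTCA, an AP-1 motif, both searched on either strand, was found in these 4 windows, against 3.17% and 6.75% of all windows. A match describes the letters alone.

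The gate was checked first. Foxp3 was seen in 177 kept barcodes, of which 162 also held a Cd3 transcript. Of those, 43 carried Cd8a or Cd8b1, 15 carried Cd79a and 15 carried C1qa. Foxp3 UMIs were close to absent from other cells without a Cd3 UMI: 1 of 1498 B cells (0.0668%, median 3410 UMIs), 2 of 3175 macrophages (0.063%) and 2 of 4454 hepatocytes (0.0449%, median 15059 UMIs) had any. These cells were defined by having no Cd3 UMI, so the shares do not measure how often such cells enter a gate that asks for Cd3. Among CD8 T cells 15 of 2945 (0.509%) had a Foxp3 UMI. Within the 102 members Foxp3 was counted once in 54 and at least 2 times in 48, and its level, which the rule chose on, was 596, 339, 444 and 356 counts per 1000000 nuclear-encoded UMIs (CPM). Cd4 was detected in 38 of 102.

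The label was then checked against genes that the gate did not use. Ikzf2, which encodes Helios, a transcription factor of regulatory T cells, was detected in 96 of 102 members: 11 of 11, 19 of 19, 20 of 21 and 46 of 51. Of the markers Il2ra, Ctla4, Ikzf2, Tnfrsf4 and Tnfrsf18, every member had at least 1 and 95 had at least 2. Ctla4 was detected in 53 members and Il2ra in 25, and 62 had either. Members with a single Foxp3 UMI were shallower, with a median of 2631 UMIs against 4141. Ikzf2 was present in 96.3% of the 54 single-UMI members and 91.7% of the other 48, and Tnfrsf4 in 55.6% and 77.1%. The B-cell share of barcodes with a UMI was 0.734% for Ikzf2, 0.534% for Tnfrsf4, 6.01% for Tnfrsf18, 2.14% for Ctla4 and 0.868% for Il2ra. In CD8 T cells it was 44% for Ikzf2, 11.5% for Tnfrsf4, 36.7% for Tnfrsf18, 35.9% for Ctla4 and 1.26% for Il2ra, at a median of 4367 UMIs, so several of the 5 markers were common in other T cells too.

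Barcodes just outside the gate looked partly alike. The 43 left out for a Cd8 UMI had a median of 8654 UMIs, against 3025 in members, and held Ikzf2 in 95.3% and Tnfrsf4 in 83.7%. They also held Ccl5 in 88.4%, against 41.2% of members. The 15 left out for Cd79a and the 15 left out for C1qa had medians of 11942 and 12328 UMIs, and Ikzf2 was present in 93.3% of each. Among the 15 barcodes with Foxp3 but no Cd3 transcript only 26.7% held Ikzf2.

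Regulatory T cells made up 2.16% of T cells in control (11 of 510, interval 1.08% to 3.83%) and 4.03% with low AFP (19 of 471, 2.45% to 6.23%). They were 3.76% with high AFP (21 of 559, 2.34% to 5.69%) and 1.78% of T cells from HCC (51 of 2869, 1.33% to 2.33%). The HCC interval lies just below those of low-AFP and high-AFP and overlaps that of control. T cells of HCC were also the most dominated by CD8 cells, which formed 37.1%, 53.9%, 61.5% and 74.7% of T cells.

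Within CD4 T cells the order differed. Here the denominator was the members plus conventional CD4 T cells, which had a Cd3 and a Cd4 UMI and none of Foxp3, Cd8a, Cd8b1, Cd79a or C1qa. Regulatory T cells were 13.4% of CD4 T cells in control (11 of 82, 6.89% to 22.7%) and 24.1% with low AFP (19 of 79, 15.1% to 35%). They were 33.9% with high AFP (21 of 62, 22.3% to 47%) and 36.4% in the HCC library (51 of 140, 28.5% to 45%). Only the control and HCC intervals are apart, while neighbours in this order overlap. With at least 2 Foxp3 UMIs control (10.1%, 4.47% to 19%) and HCC (19.8%, 12.9% to 28.5%) overlap as well. When every cell was thinned to 2000 UMIs the shares of CD4 T cells were 13.6%, 20%, 28.2% and 40.4%, in the same order. Thinned shares of all T cells were 1.28%, 2.61%, 2.13% and 1.55%, and there HCC is no longer lowest. Thinned to 1000 UMIs they were 1.12%, 1.45%, 1.21% and 0.897%, with HCC lowest. A member needs no Cd4 UMI while a conventional cell does. With a Cd4 UMI also asked of members, the shares of CD4 T cells were 7.79%, 13%, 18% and 13.6%, and HCC is no longer the highest. Its interval (7.63% to 21.8%) then overlaps that of control (2.91% to 16.2%).

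**Figure D1:**
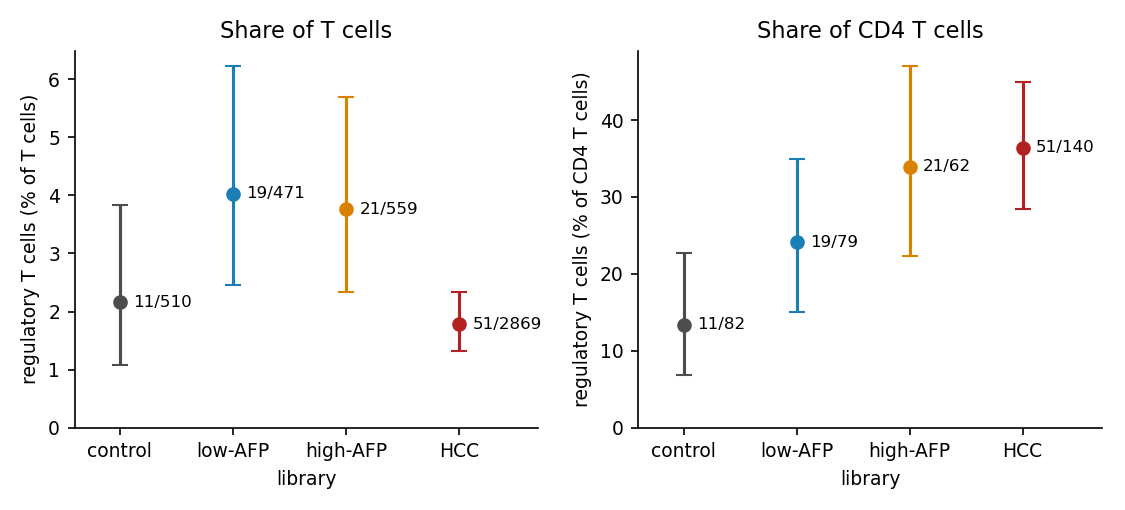
Regulatory T cells as a percentage of T cells (left) and of CD4 T cells (right) in the 4 libraries, with exact 95% binomial intervals and the counts of cells. The share of T cells is lowest in HCC at 1.78%, while the share of CD4 T cells goes from 13.4% in control to 36.4% in HCC.

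Few deep barcodes carried much of the RNA. Members had a median of 3460, 4072, 2518 and 3260 UMIs, against 3833, 3653, 3113 and 4136 in conventional CD4 T cells. By library 2, 5, 3 and 5 members, 15 in all, exceeded 8000 UMIs, and they held 37.6%, 55.6%, 40.2% and 42.2% of the members' UMIs. Of these 15, 11 had at least 20 UMIs of Cd74 (antigen presentation), Lyz2 (myeloid) or Alb (hepatocyte albumin), a limit not scaled to depth. Cd74 was concentrated, with 1535 of its 1661 UMIs in 8 members. Hepatocyte RNA was not confined to deep barcodes. A list of 12 hepatocyte markers summed to 17723, 8216, 16023 and 12934 CPM in members. With at most 8000 UMIs it summed to 18475, 12781, 23743 and 2826 CPM, lower only in HCC. A doublet caller marked 1 member in control and 3 in HCC. Sums over members are therefore given below with and without barcodes over 8000 UMIs, a limit applied to every class compared and chosen after seeing the data.

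**Figure D2:**
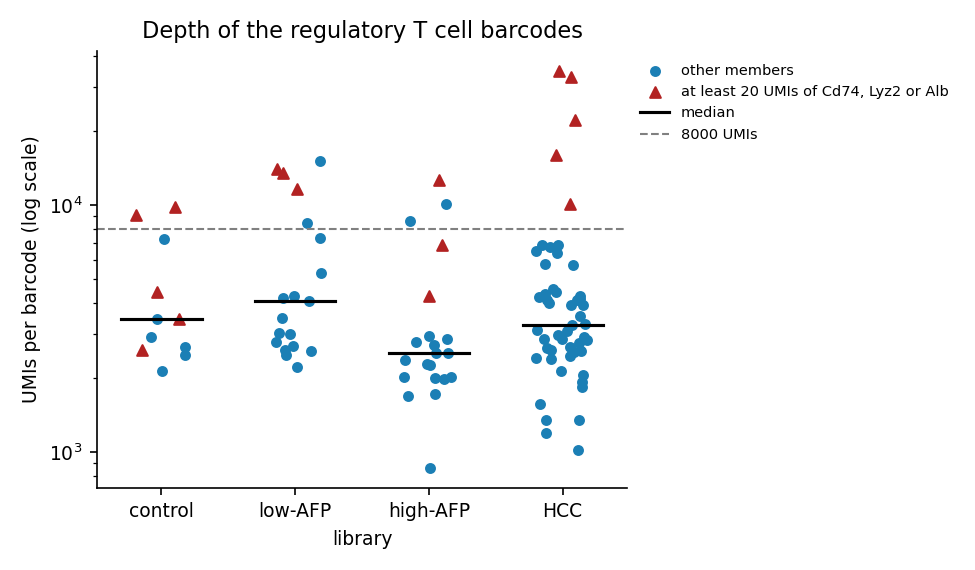
Total UMIs of each regulatory T cell (log axis) by library, with a bar at the median and a line at 8000 UMIs; triangles mark members with at least 20 UMIs of Cd74, Lyz2 or Alb. Most triangles lie above the line, where 15 of 102 members sit.

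Regulatory T cells held more Ikzf2, Tnfrsf4 and Capg than conventional CD4 T cells in each library. Ikzf2 was at 1745, 1111, 1124 and 1201 CPM in members, and at 174, 240, 354 and 267 CPM in conventional CD4 T cells. Tnfrsf4 was at 234, 744, 416 and 570 CPM in members and 105, 210, 152 and 153 CPM in conventional cells. Capg, an actin-capping protein, was at 404, 602, 319 and 493 CPM against 34, 123, 56.2 and 187 CPM. For each of these 3 genes every member value is above every conventional value. The share of all tested genes that separate in this way is not given here, so the separation only describes these 3 genes.

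The class difference was tested with edgeR on UMI sums per library and class, with library as a block, so that p measures a difference against its spread over the 4 libraries, which are 4 different groups. At all depths 3466 genes were tested, and 0.0289% of them passed an adjusted p of 0.05. Tnfsf8, the ligand CD153, was the 1 gene that passed, lower in regulatory T cells by a log2 fold of -4.01 (SE 0.42, adjusted p = 0.0412), with 6 UMIs in all members against 243 in conventional cells. A filter on low counts let a gene be tested only with enough UMIs for the depth in at least 4 sums. Tnfsf8 entered only through conventional cells, so the filter set its direction. At an unadjusted p under 0.05 there were 155 of the 3466 genes, no more than the share of 0.05 that would arise if no gene differed. DESeq2 called 4 higher and 6 lower. No gene was called after any 1 library was left out. Ikzf2 had a log2 fold of 2.23 (adjusted p = 0.089), Tnfrsf4 of 1.52 (adjusted p = 0.117) and Capg of 2.19 (adjusted p = 0.159), so none passed, though each was higher in 4 of 4 libraries.

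Among cells with at most 8000 UMIs the same test called 21 genes higher and 39 lower of 2084, or 2.88% (1.01% higher and 1.87% lower). All 60 had the same direction at all depths, and Tnfsf8 was the only gene called in both. Ikzf2 had the largest increase among the named genes, with a log2 fold of 2.33 (SE 0.21, adjusted p = 5.34e-06). Tnfrsf4 was higher by 1.87 (SE 0.21, adjusted p = 7.65e-05) and Capg by 1.83 (SE 0.31, adjusted p = 0.00254). Ifngr1, a chain of the interferon-gamma receptor, was higher by 1.42 (SE 0.20, adjusted p = 4.33e-04), with 511, 593, 874 and 720 CPM in members and 330, 233, 202 and 407 CPM in conventional cells at all depths. Tnfrsf18 was higher by 1.38 (SE 0.25, adjusted p = 0.00478), with 319, 329, 472 and 380 CPM against 150, 183, 95.5 and 170. Gata3, a transcription factor of type 2 helper and tissue regulatory T cells, was higher by 1.19 (SE 0.25, adjusted p = 0.0142). Nav2, Fam46a, Wls, Cd81, Samsn1 and Tspan32 completed the 12 largest increases, between 1.17 and 2.15, and each lost its call when low-AFP was left out. Nav2 and Wls entered this test only through the members, so the filter on low counts set their direction.

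Of the 39 lower genes 23 encode ribosomal proteins, whose median over 82 tested was -0.29, and 16 do not. Ccl5, a chemokine of memory and cytotoxic T cells, was lower by a log2 fold of -3.41 (SE 0.22, adjusted p = 6.48e-08) among cells with at most 8000 UMIs. Cxcr6, the receptor that holds T cells in the liver sinusoids, was lower by -3.35 (SE 0.46, adjusted p = 4.33e-04), with 0, 28.2, 13.9 and 68.8 CPM in members against 670, 333, 135 and 228 CPM in conventional cells at all depths. Themis, a signalling protein of the T cell receptor, was lower by -3.72 (SE 0.50, adjusted p = 4.12e-04), Tnfsf8 by -3.75 (SE 0.44, adjusted p = 1.12e-04) and the cytotoxic granule protein gene Nkg7 by -3.01 (SE 0.42, adjusted p = 4.33e-04). Tcf7, Bcl2, Id2, Slamf6, Thy1, Pde7a and Hcst were lower too, by between -1.04 and -1.97, but each lost its call without HCC. Tcf7, Bcl2, Id2 and Hcst also lost it without low-AFP. In that fit Ikzf2, Tnfrsf4, Capg, Ifngr1, Ccl5, Cxcr6, Nkg7 and Tnfsf8 remained called without each library in turn. Themis remained called in the 3 such fits that tested it and was not tested without HCC. Without HCC only 5 genes were higher and 6 lower, and without low-AFP 6 and 14. Tnfrsf18 was lost without HCC (adjusted p = 0.0773), and Gata3 without low-AFP or HCC (highest adjusted p = 0.107). Cxcr6, Themis, Tnfsf8 and Pde7a entered the test only through conventional cells, so the filter on low counts set their direction.

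A list of 25 identity and suppression genes of regulatory T cells had 12 genes tested at 8000 UMIs or fewer, of which 4 rose, none fell and the median log2 fold was 1.02, against -0.00 over all genes tested. The 4 were Ikzf2, Tnfrsf4, Tnfrsf18 and Capg. Ctla4 did not pass (1.12, adjusted p = 0.0874), nor did Nrp1 (0.99, adjusted p = 0.0614) or Izumo1r, the folate receptor 4 gene (1.06, adjusted p = 0.0854). Ctla4 stood at 383, 235, 139 and 396 CPM in members and at 47.6, 120, 101 and 205 CPM in conventional cells, so the groups overlap. Among 14 tested genes of an effector and tissue list 2 were higher (Gata3 and Samsn1) and 2 lower (Cxcr6 and Id2). Of these only Cxcr6 remained called without each library in turn. Of 8 naive and resting T cell genes 1 was lower, Tcf7, and none higher, with a median of -0.79. Tcf7 was not called without low-AFP or without HCC. In a list of other TNF receptor and costimulation genes, without Tnfrsf4 and Tnfrsf18, none of 7 tested was called.

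**Figure D3:**
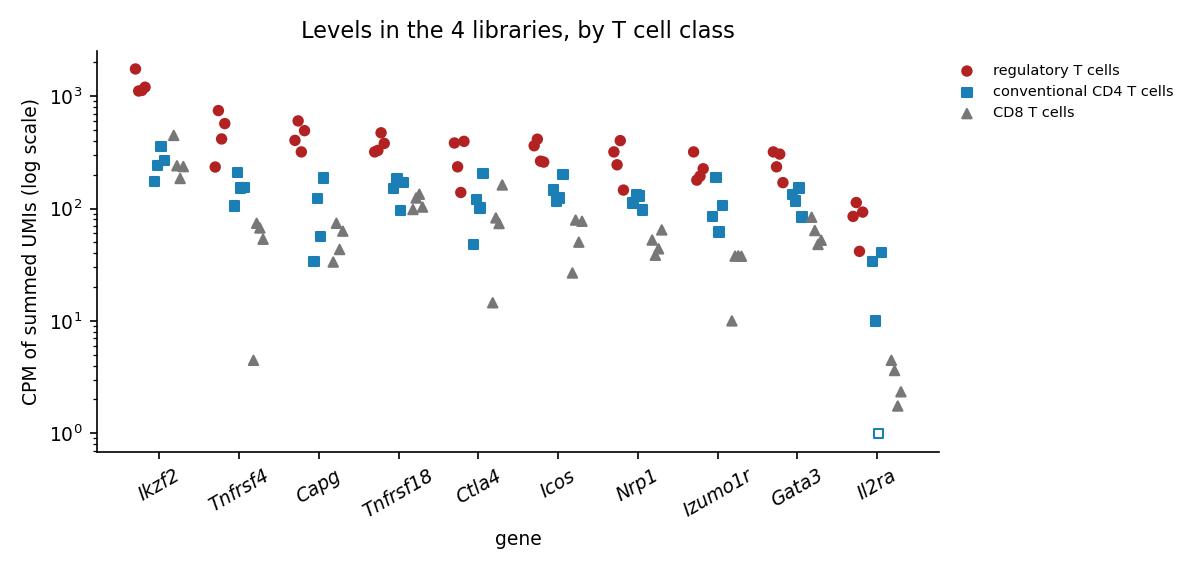
Levels of 10 regulatory T cell genes in CPM (log axis) in regulatory, conventional CD4 and CD8 T cells, 1 point per library; an open symbol is 0 UMIs, drawn at 1 CPM. For Ikzf2, Tnfrsf4 and Capg all 4 regulatory values lie above the 4 conventional values, while those of Ctla4 overlap.

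Markers of other cell types also differed between the classes. With at most 8000 UMIs the endothelial list summed to 137, 63.5, 46.1 and 48.1 CPM in members, and to 1289, 774, 818 and 51.8 CPM in conventional CD4 T cells. The B and plasma cell list summed to 1542, 508, 576 and 378 CPM in members and 195, 162, 131 and 190 CPM in conventional cells. In members it came mostly from Ighm, which was among the 21 higher genes, while Ms4a1, Ebf1 and Pax5 were at 0 UMIs in all 4 libraries. The part of these transcripts in the class differences was not tested.

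Detection per cell was compared at equal depth. After thinning to 2000 UMIs, which 90 members, 256 conventional and 2848 CD8 T cells could supply, Ikzf2 was detected in 84.4% of members, 27% of conventional cells and 29.6% of CD8 cells. Tnfrsf4 was detected in 51.1%, 19.9% and 5.72%, Capg in 57.8%, 16.4% and 8.29%, and Ifngr1 in 68.9%, 38.3% and 27%. Capg is also expressed by B cells and macrophages (49.5% and 51.8% with a UMI at full depth). Ccl5 was detected in 32.2% of members, 56.6% of conventional cells and 96.9% of CD8 cells, and Cxcr6 in 3.33%, 38.3% and 51.2%. These shares pool the 4 libraries in different mixes. HCC gave 44 of the 90 members, 88 of the 256 conventional and 2083 of the 2848 CD8 cells. Exact intervals of members and conventional cells did not overlap for the genes just named. They cover counting error of pooled cells only, so class and library mix cannot be told apart in them. Conventional cells may include regulatory T cells whose Foxp3 was not captured, and their number was not estimated.

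The difference from CD8 T cells was wider. CD8 T cells here had a Cd3 and a Cd8 UMI and no Cd4, Foxp3, Cd79a or C1qa. Of 6731 genes tested at all depths 97 were higher and 150 lower in regulatory T cells (3.67% called, 1.44% higher and 2.23% lower), and the lower calls include 36 ribosomal protein genes, whose median over 91 tested was -0.42. Without TMM scaling the median of all genes moved up by 0.18 and the split became 152 higher and 87 lower, while DESeq2 gave 93 higher and 79 lower, so the balance of directions depends on the scaling. With at most 8000 UMIs the counts were 142 higher (2.78%) and 199 lower (3.9%) of 5099, 6.69% in all, and 194 genes were called in both with the same direction, which is 78.5% of the calls at all depths and 56.9% of those in the shallower cells.

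Il2ra showed the largest increase that this test called, with 85.1, 113, 41.6 and 93 CPM in regulatory T cells against 4.46, 3.62, 1.75 and 2.34 CPM in CD8 T cells (log2 fold 4.78, SE 0.41, adjusted p = 7.16e-06). In conventional CD4 T cells it was at 34, 9.99, 0 and 40.9 CPM, too few UMIs to enter that test. Tnfrsf4 was higher than in CD8 cells by 3.21 (SE 0.29, adjusted p = 1.18e-05), Capg by 2.90 (SE 0.21, adjusted p = 1.50e-06) and Izumo1r by 2.63 (SE 0.35, adjusted p = 4.22e-04). Nt5e, which encodes the adenosine-producing enzyme CD73, was higher by 2.51 (adjusted p = 6.08e-04) and Icos by 2.23 (adjusted p = 2.35e-04). Igf1r, the insulin-like growth factor receptor, Tnfrsf25 (death receptor 3), the integrin Itgae (CD103) and Timp2 were higher by 3.05 to 3.48. These 10 genes remained called without each library in turn. Il2ra, Itgae and Tnfrsf25 were so low in CD8 T cells that they entered the test only through regulatory T cells. Their direction was thus set by the filter on low counts and is not a separate result.

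Of 18 tested identity genes 11 were higher than in CD8 T cells, 1 was lower (Rgs1, by a log2 fold of -1.07 and not called without HCC), and the median was 1.87 against -0.03 over all genes. Ikzf2 was higher by 2.10 (adjusted p = 2.96e-06), Nrp1 by 2.15 (adjusted p = 8.70e-04) and Tnfrsf18 by 1.54 (adjusted p = 2.45e-04). Ctla4 was higher by 1.63 (adjusted p = 0.0337), a call that was lost without low-AFP, high-AFP or HCC, with a highest adjusted p of 0.125. Among effector and tissue genes 4 of 19 were higher (Icos, Klrg1, Gata3 and Rora) and 3 lower (Gzmb, Cxcr6 and Id2). Klrg1, a marker of terminally differentiated cells, was at 85.1, 18.8, 97.1 and 68.8 CPM in regulatory T cells and higher by 2.07 (adjusted p = 0.00916), but not called without high-AFP or without HCC. In the TNF receptor and costimulation list 3 of 15 were higher, Tnfrsf25, Nfkb1 and Nfkbia, and none lower. Tnfrsf25 remained called without each library, whereas Nfkb1 was called only without HCC (highest adjusted p = 0.206) and Nfkbia in none of the 4 fits (highest adjusted p = 0.255).

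Cytotoxic genes were lower than in CD8 T cells. Of 12 tested cytotoxic genes 10 were called lower and none higher, with a median log2 fold of -2.97. Gzma, which encodes granzyme A, had 2 UMIs in all regulatory T cells against 11642 in CD8 cells, a ratio of 0.00579 (0.000702 to 0.0209). Nkg7 was lower by -5.00 (SE 0.42, adjusted p = 7.16e-06) and Ccl5 by -5.53 (SE 0.41, adjusted p = 1.87e-06). Gzmb, Gzmk, Eomes, Prf1, Fasl and Ifng were lower by -3.47 to -5.07. Another 4 called genes, Mctp2, Ifitm10, Rrm2 and Dapl1, had 0 UMIs in all members and were at least 6.41-fold, 5.48-fold, 3.75-fold and 3.95-fold lower, against a floor of 3 UMIs over all members, and each lost its call without high-AFP. These 4 genes, Gzma and Eomes entered the test only through CD8 T cells, so the filter on low counts set their direction. Of the checkpoint list, Cd160, Lag3, Nr4a2 and Pdcd1 fell, 4 of 12 tested with none higher, by between -1.81 and -4.27. Pdcd1, which encodes PD-1, stood at 21.3, 65.9, 55.5 and 44.5 CPM in regulatory T cells, and its call, like those of Lag3 and Nr4a2, was lost without high-AFP or without HCC.

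Ccl5 in regulatory T cells differed by library: 0 of 11, 6 of 19, 5 of 21 and 31 of 51 members had a UMI. The share of B cells with a Ccl5 UMI moved along with it, at 2.31%, 4.27%, 5.45% and 34.7%. How much of the members' Ccl5 is free RNA was not tested.

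**Figure D4:**
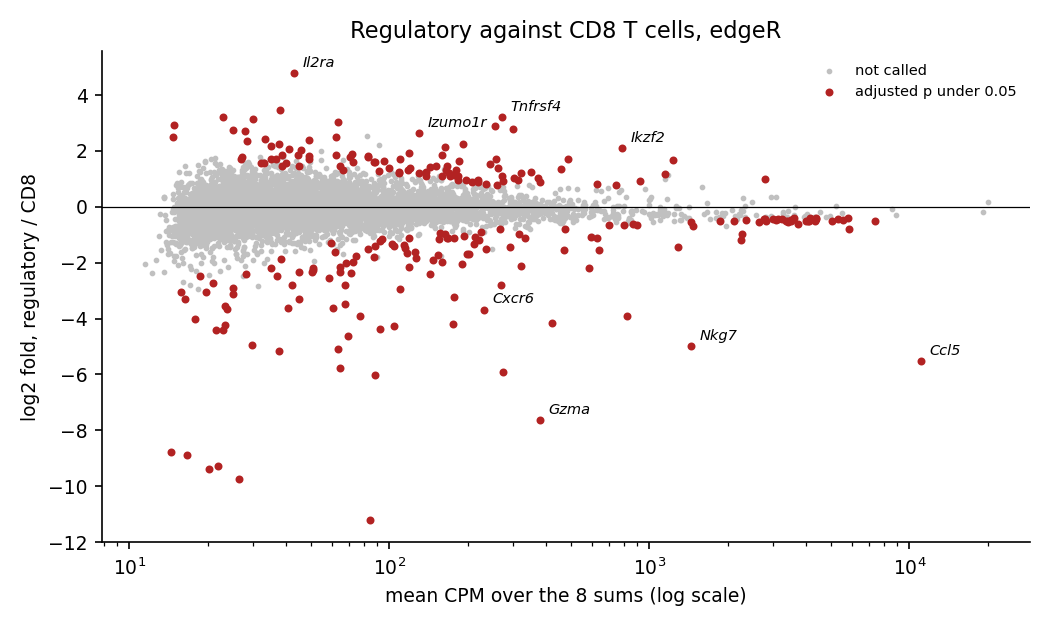
Log2 fold of regulatory against CD8 T cells (edgeR, library block) against mean CPM (log axis) for the genes tested, with called genes coloured and named genes labelled. Il2ra, Izumo1r and Tnfrsf4 lie among the highest called genes, and Gzma, Ccl5 and Nkg7 far below 0; the 6 points under -8 are genes at 0 UMIs in regulatory T cells, whose fitted fold depends on the prior count.

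Of 18 tested cell cycle genes 6 were lower than in CD8 T cells and none higher, with a median log2 fold of -1.14, including Top2a (-2.79, adjusted p = 0.00384) and Stmn1 (-1.96, adjusted p = 0.00712). With at most 8000 UMIs none of the 8 cell cycle genes tested was called, Top2a among them (adjusted p = 0.196), and the median was -0.58. Only 1 member, in low-AFP, had 10 or more UMIs of the proliferation gene Mki67, with 34. In the interleukin-2 and STAT5 list Pim1, a kinase induced by STAT5, was higher (1.38, adjusted p = 7.81e-04), and the survival gene Bcl2 was lower (-2.12, adjusted p = 2.50e-04), of 14 tested. Runx3, a transcription factor of CD8 T cells, was the 1 called gene of 14 in the TGF-beta and retinoic acid list, and it was lower by -2.05 (adjusted p = 5.01e-04). The interferon-stimulated list had 2 higher of 20 (Ifi27l2a and Ly6a) and none lower. Ifi27l2a was not called without low-AFP (adjusted p = 0.0587), nor Ly6a without high-AFP (adjusted p = 0.11).

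Among genes of suppression, the cytokine gene Il10 was represented by 1 UMI over all 102 members, Ebi3 by 9 and Tigit by 1, and Lrrc32, which presents latent TGF-beta, by 9. Tgfb1, a secreted suppressive cytokine, was at 21.3, 169, 166 and 251 CPM. Areg, a tissue-repair growth factor, had 0, 20, 1 and 12 UMIs, and Ccr8, a receptor of tumour regulatory T cells, had 6 UMIs, all in HCC. With 1 UMI equal to 21.3 CPM in control and 4.04 CPM in HCC, absence in a library was not detectable at this depth. S100a4, S100a6 and Lgals1, genes of activated and migrating T cells, were abundant, with S100a4 at 1574, 1158, 735 and 1513 CPM. None was called by edgeR at all depths against conventional CD4 T cells (log2 folds 0.35, -0.03 and 0.08) or CD8 T cells. With at most 8000 UMIs S100a4 was called higher than in CD8 T cells (1.01, adjusted p = 4.85e-04) and S100a6 lower (-0.89, adjusted p = 0.0213).

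Libraries were compared within regulatory T cells only between HCC and high-AFP, since control with 11 and low-AFP with 19 members lie under a minimum of 20. Folds are log2 after adding 50 CPM, for genes at 100 CPM or more in either library and at least 20 UMIs over both. Of 1939 genes 106 were at least 2-fold higher in HCC (5.47%) and 71 lower (3.66%), with a median of 0.04. Values below for cells with at most 8000 UMIs rest on 18 members of high-AFP, under that minimum, and show only what depends on the deep barcodes.

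Immediate early genes, which T cell receptor signals and cell dissociation both induce, were higher in HCC than in high-AFP. Dusp1, a phosphatase that limits MAP kinases, had 170 UMIs (688 CPM) in HCC and 8 (111 CPM) in high-AFP, a ratio of 6.20 (3.07 to 14.6), with 489 CPM in control and 132 in low-AFP. Junb stood at 1319, 875, 721 and 1889 CPM, and Fos at 298, 273, 250 and 659 CPM. Of 15 genes compared in the immediate early and dissociation list 5 were at least 2-fold higher (Atf3, Fosb, Junb, Fos and Dusp1) and none lower, with a median of 0.63. Atf3 rested on deep barcodes, with a log2 value of 1.60 at all depths and 0.00 with at most 8000 UMIs, while Dusp1 (3.20), Fosb (1.73) and Junb (1.40) were past 2-fold there and Fos (0.78) was not.

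Other T cells of the same libraries showed the same direction. Dusp1 was at 152 CPM in high-AFP and 635 in HCC in conventional CD4 T cells, and at 135 and 435 CPM in CD8 T cells. Junb went from 477 to 1796 CPM in conventional cells and from 319 to 1395 in CD8 cells. Nr4a1 and Nr4a2, nuclear receptors induced by T cell receptor signals, had 1 and 0 UMIs in regulatory T cells of high-AFP and 29 and 31 in HCC. Nr4a2 was at least 3.01-fold higher in HCC, against a floor of 3 UMIs, and in CD8 T cells it was at 52.5 and 582 CPM. HCC also had the lowest share of barcodes over the mitochondrial limit (8.19% against 26.5% in high-AFP), and the part of cell handling in these values was not tested.

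**Figure D5:**
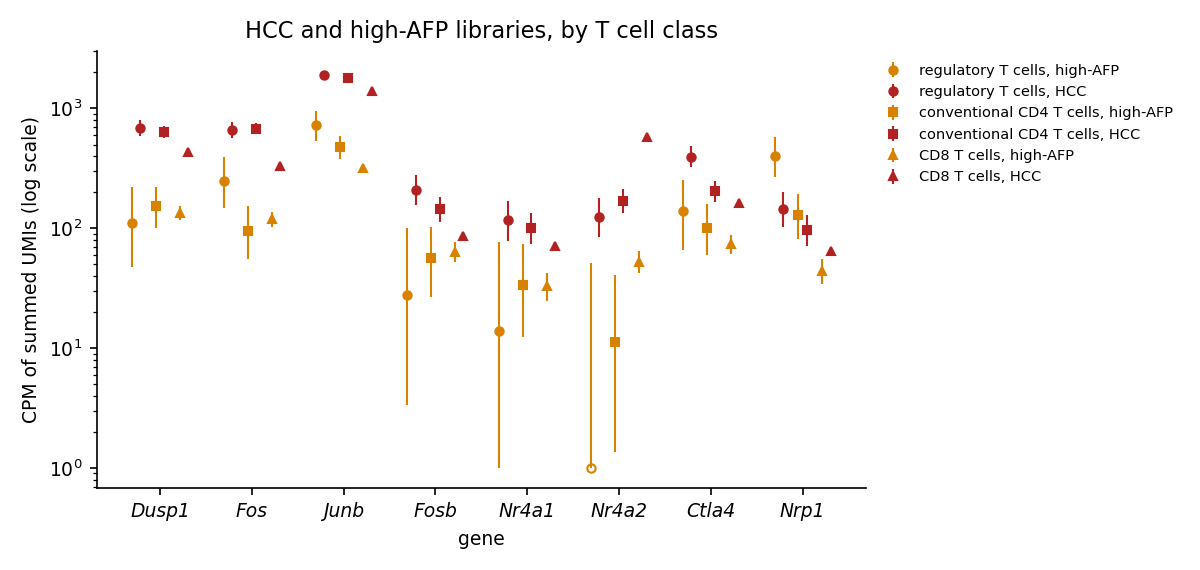
Levels in CPM (log axis) of 8 genes in high-AFP and HCC for regulatory, conventional CD4 and CD8 T cells, with exact 95% Poisson intervals; an open symbol is 0 UMIs, drawn at 1 CPM. Dusp1, Fos, Junb and Ctla4 are higher in HCC in all 3 classes, and Nrp1 is lower in HCC in regulatory T cells.

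Most identity genes stayed within 2-fold between HCC and high-AFP. The median log2 value of the 13 compared was 0.35, against 0.04 over all genes. Ikzf2 had a ratio of 1.07 (0.834 to 1.38), Tnfrsf4 of 1.37 (0.919 to 2.11), Tnfrsf18 of 0.806 (0.539 to 1.23) and Capg of 1.55 (0.985 to 2.53). The intervals of Tnfrsf4 and Capg reach past 2-fold. Icos, of the effector list, had a ratio of 0.982 (0.581 to 1.74). Ctla4 was the 1 identity gene of 13 at least 2-fold higher, with 98 UMIs (396 CPM) against 10 (139 CPM), a ratio of 2.86 (1.49 to 6.14). Control lay near HCC for this gene, at 383 CPM, so high-AFP was the low library. Ctla4 was also higher in HCC than in high-AFP in conventional CD4 T cells and in CD8 T cells (162 against 73.5 CPM in CD8 T cells). The difference is thus not particular to regulatory T cells. Nrp1 (neuropilin-1) was the 1 at least 2-fold lower, at 146 against 402 CPM, a ratio of 0.362 (0.216 to 0.612), but with at most 8000 UMIs its log2 value was -0.17. Batf and S100a6, of 13 effector genes compared, were at least 2-fold higher in HCC. Traf1, an adaptor of TNF receptors, was at 384 against 97.1 CPM, a ratio of 3.96 (1.85 to 10.1).

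Several of the largest library differences were genes of other cell types. Mup20, a major urinary protein of hepatocytes, was at 206 CPM in HCC and 4842 CPM in high-AFP regulatory T cells, while 23.4% of HCC and 100% of high-AFP B cells held a Mup20 UMI. The endothelial list, with 4 of 4 genes compared at least 2-fold lower in HCC, summed to 170, 188, 2275 and 84.9 CPM in members. With at most 8000 UMIs it summed to 137, 63.5, 46.1 and 48.1 CPM. The macrophage and monocyte list summed to 426, 1572, 1470 and 3446 CPM, and to 411, 275, 2234 and 330 CPM with at most 8000 UMIs. The complement gene C3 had a log2 value of 2.67 at all depths and -1.03 in the shallower cells. Nkg7 and Tnf had 70 and 38 UMIs in HCC and 0 in high-AFP, at least 6.8-fold and 3.69-fold higher, and the B-cell share with an Nkg7 UMI was 6.53% in HCC and 0.962% in high-AFP.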

How the data were processed

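The authors deposited whole-number UMI counts per gene and barcode for 31053 genes in each of 4 libraries, made with Cell Ranger 3.0.2 per the file headers. The submitters' processing notes also name R 3.0, Seurat 3 and the mm9 build. The labels' protocols name a 10x 3' kit. No coordinate of that build was used, and promoter windows carry their own build.

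The members, the gene lists and the rules were chosen with earlier results of these data known. UMIs were summed per library and class and expressed per 1000000 nuclear-encoded UMIs, in which 1 UMI of the members was worth 21.3 (control), 9.41 (low-AFP), 13.9 (high-AFP) and 4.04 CPM (HCC). Class differences were tested with edgeR 4.0.16 (R 4.3.3; TMM, quasi-likelihood, filterByExpr, library block, Benjamini-Hochberg threshold 0.05), leaving 9 gate genes and 13 mitochondrial genes out. A difference passes only against the spread over 4 libraries of 4 groups. In simulated data for conventional CD4 T cells 86% of 4-fold and 22% of 2-fold changes among 3317 genes were recovered, and 0.127% of unchanged genes were called. For CD8 T cells these were 82%, 18% and 0.0466% of 6617 genes. Every gene was simulated with the same spread, the common dispersion of the fit. The recovered shares therefore do not cover genes that vary more over the libraries.

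Named genes are the 12 most higher and 12 most lower called genes of a class comparison, up to 8 each way between libraries and up to 4 per list, without mitochondrial, ribosomal, haemoglobin, antigen receptor, sex-linked and unnamed model genes, and not all of these are printed. Ifngr1, Ighm, Top2a, Stmn1, Ccr8, Areg and other genes described by level were named after their values were seen. Doublets were scored with Scrublet in scanpy 1.11.5 and removed only as an alternative. Shares carry Clopper-Pearson intervals and sums Poisson intervals (95%). A fold against 0 UMIs uses a floor of 3 UMIs, per library between libraries and over all members between classes. The alternatives were DESeq2 1.42.0, scaling, filters, gates, thinning, cell limits and leaving out each library. The limit of 8000 UMIs, alone and with each library left out, and equal weight per cell were chosen after seeing the data.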

Additional observations from a re-analysis of the deposited data

How the results depend on the processing

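No paired analysis was possible because each group is 1 library with replicate number 1, and the library block already sets the classes of a library against each other. The number of members, 11 to 51 per library, limits every value. The shares moved with the gate and with thinning. As a percentage of T cells they were 1.57, 2.12, 1.43 and 0.767 with at least 2 Foxp3 UMIs. They were 1.18, 1.91, 1.61 and 0.488 with a Cd4 UMI. Thinned to 1000 UMIs they were 1.12, 1.45, 1.21 and 0.897, with 2.13 in high-AFP thinned to 2000. As a percentage of CD4 T cells they were 10.1, 14.3, 16.3 and 19.8 with at least 2 Foxp3 UMIs. They were 7.79, 13.0, 18 and 13.6 with a Cd4 UMI, and 15.2, 21.4, 26.1 and 48.9 thinned to 1000 UMIs.

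Against conventional CD4 T cells the counts of higher and lower genes were 4 and 6 by DESeq2, 0 and 0 without TMM, 16 and 38 without the filter on low counts, 1 and 2 without the library block, and 3 and 4 with a mitochondrial limit of 15%. They were 21 and 39 with at most 8000 UMIs and 14 and 23 thinned to 2000, and the lower count was 0 with at least 2 Foxp3 UMIs, with a Cd4 UMI or without scored doublets. Leaving out each library gave 0 higher and 0 lower at all depths, and with at most 8000 UMIs 22 higher and 63 lower without control, 6 and 14 without low-AFP, 27 and 49 without high-AFP, and 5 and 6 without HCC. Against CD8 T cells the counts were 152 and 87 without TMM, 61 and 67 without the library block, 54 and 75 with at least 2 Foxp3 UMIs, and 21 and 94 with a Cd4 UMI. The lower count was 79 by DESeq2 and 406 without the filter. Leaving out each library gave 51 to 89 higher and 55 to 123 lower at all depths, and 63 to 147 and 98 to 162 with at most 8000 UMIs. The cause of these changes was not tested.

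Between HCC and high-AFP the counts were 170 and 112 with 20 CPM added and 55 and 46 with 100 CPM added, while lower genes were 148 from 10 UMIs and 140 with equal weight per cell. No value was computed with at least 2 Foxp3 UMIs, with a Cd4 UMI or at a 15% mitochondrial limit, since high-AFP then holds 8, 9 and 19 members, under the minimum of 20. Values with at most 8000 UMIs, where it holds 18, are also under that minimum and are given only to show what rests on deep barcodes. Direction reversed for 7 single genes. Against CD8 T cells these were Nfkbiz (-0.54) and Traf1 (-0.08) with a Cd4 UMI, and Lyz2 (-0.29) and Tyrobp (-1.05) with at most 8000 UMIs and without high-AFP. Between HCC and high-AFP they were C3 (-1.03), Aqp1 (0.19) and Plpp3 (0.19) with at most 8000 UMIs.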
